A study of Mus musculus with 12 samples.

Results

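Cell cycle and DNA replication genes were examined in mouse mesenchymal stem cells (MSCs) grown with or without hematopoietic stem cells (HSCs). The genes were a list of 38 chosen by function, 15 that act in the G1 phase and at the start of DNA synthesis (G1/S genes) and 23 that act in G2 and mitosis (G2/M genes). A gene was taken as measured when the annotation of the array gave its symbol as the only one for a probe set, a group of short probes for 1 transcript. That held for 37 of the 38 genes, through 86 of the 45037 probe sets on the array. All 15 G1/S genes and 22 of the 23 G2/M genes were measured, and the signal of the mitotic cyclin Ccnb1 was not analysed here. Over the whole array 18193 genes were measured in this way.

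Total RNA from 12 cultures was hybridized to Affymetrix GeneChip arrays. The methods place the extraction of RNA after 6 days of co-culture. The labels described male C57BL6/J mice aged 6 weeks as the source of the bone marrow. Of the 12 arrays, 6 came from MSC and HSC co-cultures (treated) and 6 from MSC-only cultures (control); they are named co-culture 1 to 6 and control 1 to 6 after the labels. The sort for MSCs took PDGFR-α+, Sca-1+ cells that lacked CD31, CD45 and TER119, the sort for HSCs took Lin-, Sca-1+, c-Kit+ cells, and a co-culture was seeded with 3000 MSCs and 7000 HSCs. The methods describe MSCs from EGFP-expressing mice for co-culture, both direct and indirect contact, and a harvest of both cell types. Which kind of contact these arrays had, and whether the cells were separated again before RNA was taken, is not given in the sources used here. No label tied a culture to an animal, so p-values measure only the spread between these samples, which may be technical.

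A dividing cell moves through G1, copies its DNA in S phase, and passes through G2 into mitosis. Genes of the replication machinery are switched on late in G1, in large part through E2F transcription factors, which the retinoblastoma protein family holds back in resting cells. Genes of mitosis are switched on later through the MuvB complex with B-Myb and FoxM1. These act at promoters with a cell cycle homology region (CHR) and with CCAAT boxes bound by NF-Y. In bone marrow, most HSCs and stromal cells are held in a resting state, and both enter the cycle in culture.

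Promoter sequences of 5 members are shown because they carry these elements and stand for the patterns described further on. Each runs from 150 bases before to 30 bases after the transcript start of its RefSeq promoter entry (GRCm38.p6), which can differ from the outermost start of the gene. Sequences read 5′ to 3′ on the strand of the gene, with matches in capitals. Matches on either strand count, and matches of 1 motif can overlap. An E2F match reads TTNNCGC, where each N is either C or G. Mcm6 and Mcm5 encode subunits of the replicative helicase, and their promoters held E2F and CCAAT matches. Ccnb2, a mitotic cyclin, held CCAAT and CHR matches, and Cdk1, the kinase it activates, held all 3 motifs. Cenpa, the histone H3 variant that marks centromeres, held CCAAT and CHR matches like other G2/M genes.
Mcm6 promoter (chr1:128359676-128359855, minus strand): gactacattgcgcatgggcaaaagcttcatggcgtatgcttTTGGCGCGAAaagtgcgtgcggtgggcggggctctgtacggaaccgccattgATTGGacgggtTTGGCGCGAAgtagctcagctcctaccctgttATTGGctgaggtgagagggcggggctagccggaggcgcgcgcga
Mcm5 promoter (chr8:75109359-75109538, plus strand): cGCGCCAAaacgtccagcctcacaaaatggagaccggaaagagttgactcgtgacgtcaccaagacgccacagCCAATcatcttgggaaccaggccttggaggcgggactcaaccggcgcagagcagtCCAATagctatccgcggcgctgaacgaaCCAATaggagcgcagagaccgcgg
Ccnb2 promoter (chr9:70421525-70421704, minus strand): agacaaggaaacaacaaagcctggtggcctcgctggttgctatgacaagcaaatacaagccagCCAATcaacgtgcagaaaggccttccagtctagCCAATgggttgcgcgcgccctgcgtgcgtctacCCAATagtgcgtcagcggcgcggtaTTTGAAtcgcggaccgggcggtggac
Cdk1 promoter (chr10:69352883-69353062, minus strand): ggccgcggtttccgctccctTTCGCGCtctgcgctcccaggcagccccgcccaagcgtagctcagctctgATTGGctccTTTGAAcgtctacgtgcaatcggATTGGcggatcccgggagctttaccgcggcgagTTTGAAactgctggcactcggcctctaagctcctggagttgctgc
Cenpa promoter (chr5:30666736-30666915, plus strand): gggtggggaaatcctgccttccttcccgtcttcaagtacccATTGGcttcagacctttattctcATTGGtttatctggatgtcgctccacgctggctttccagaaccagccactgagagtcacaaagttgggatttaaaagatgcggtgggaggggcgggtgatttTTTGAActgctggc

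In longer windows of 300 bases, from 250 before to 50 after the start, the motifs divided the members largely by phase. Of the 38 members 30 had an entry in the promoter table, Ccnb1 among them, some with several starts. E2F matches were present in 7 of 13 G1/S promoters (53.8%) and in 3 of 19 G2/M promoters (15.8%), against 9.57% of all 32851 promoters. The CHR was searched as TTTGAA. Its matches were present in 14 of 19 G2/M promoters (73.7%) and in 1 of 13 G1/S promoters (7.69%), that of Mcm2, against 17.9% of all promoters. The CCAAT box was searched by those letters. Its matches were present in 17 of 19 G2/M promoters (89.5%) and 9 of 13 G1/S promoters (69.2%), against 37.4% of all. A match describes letters in a window and does not show binding.

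Some features of the arrays bear on every value given here. The trimmed mean signal of each array lay between 496.6 and 497.3, and every pair of arrays correlated between 0.964 and 0.980 over probe sets. The signal of Ptprc (CD45) was 10425 to 13144 over the 12 arrays, although the MSC sort left out cells with CD45. Summed macrophage marker signal was 240793 to 338879 in controls and 252185 to 334322 in co-cultures, with 15 of 15 markers measured, and summed HSC marker signal was 2341 to 2788 and 2195 to 2898, with 11 of 12 measured. A sum mostly follows its bright genes, and 5 of the 11 HSC genes stayed under a signal of 100 on every array. Bulk RNA cannot tell fewer cells of a type from less RNA per cell, so a cell cycle signal here belongs to the mixture of cells in a well. Sex-linked transcripts went against the label of male mice on several arrays. Arrays numbered 3 and 4 in both groups had Xist signals of 16810 to 21978 and signals of 17.1 or less for the Y-linked genes Eif2s3y, Kdm5d and Uty. Controls 1, 2, 5 and 6 had Xist at 60.5 to 118 with Eif2s3y at 2604 to 2845. Co-cultures 1, 2, 5 and 6 had both, with Xist at 13136 to 16604 and Eif2s3y at 1022 to 1331. Results are therefore given with and without those 4 arrays.

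Co-culture with HSCs was compared with MSCs alone to ask whether cell cycle genes differed between the groups. No difference beyond the spread between arrays was detected: after limma across all probe sets with Benjamini-Hochberg adjustment, 0 of 37 members passed an adjusted p of 0.05, and the adjusted p of every member was 1.0. By the same test 0.011% of all genes passed. At an unadjusted p under 0.05, 1 member (Tyms) was higher in co-culture and 0 were lower, where 2.47% of all genes were higher and 1.47% lower at that level. The count of members past the adjusted threshold was also 0 with limma's trend and robust options and with the methods' unpaired test, with 1 member at an unadjusted p under 0.05 in each.

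The mean was higher in co-culture for 33 of 37 members, against 53.2% of all genes. The median difference of the members was 0.07 on the log2(signal + 16) scale, beside 0.01 over all genes. It was 0.04 for the G1/S genes and 0.15 for the G2/M genes. The members rose and fell together from array to array, so this count does not stand for 37 separate observations. It turned on single arrays: without control 5 it was 7 of 37 (53.6% of all genes higher), without co-culture 6 it was 11 (53.1%), without co-culture 1 it was 21 (53.3%), and without control 4 it was 37 (51.4%). With numbers 3 and 4 of both groups left out it was 36 (53.7%). With all arrays, it was 28 when each array was centred on its median. It was 26 with the mean of all probe sets of a gene.

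Each array was scored by the mean of its members after every gene was centred on its mean over the 12 arrays. The G1/S score was -0.03 ± 0.47 in controls and 0.03 ± 0.47 in co-cultures (mean ± SD, n = 6 each), a difference of 0.06. The G2/M score was -0.07 ± 0.65 in controls and 0.07 ± 0.55 in co-cultures, a difference of 0.15. For both scores all 6 co-cultures lay within the range of the controls. Because the members were chosen with results of these data known, no test of the scores is given.

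**Figure D1:**
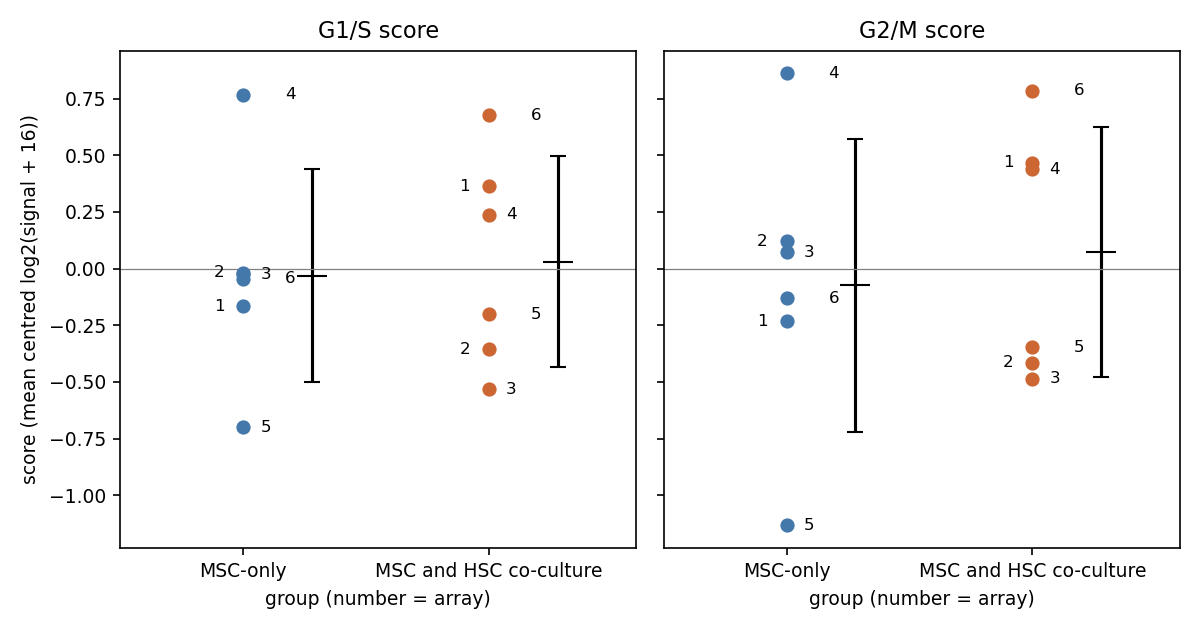
G1/S score (left) and G2/M score (right) of each array, in units of log2(signal + 16) centred per gene and averaged over 15 and 22 genes. Points are arrays numbered as in the labels, and bars are the group mean ± SD; the co-culture points of both panels sit inside the range set by control 5 and control 4.

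In controls the G2/M score was -1.13 on control 5, -0.23 on control 1, -0.13 on control 6, 0.07 on control 3, 0.12 on control 2 and 0.86 on control 4. In co-cultures it was -0.49 on co-culture 3, -0.41 on co-culture 2, -0.35 on co-culture 5, 0.44 on co-culture 4, 0.47 on co-culture 1 and 0.78 on co-culture 6. Control 4 was thus the highest and control 5 the lowest of all 12 arrays, both from the same group. The G1/S score put the 12 arrays in the same order, with Spearman's rho 1 and Pearson's r 0.975 between the scores (12 arrays that share scaling and RNA, as a description). From the lowest to the highest array the G2/M score spanned 1.99, which is 3.98-fold, and the G1/S score spanned 1.47, which is 2.77-fold.

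Single genes followed the same arrays. Control 4 held the highest signal of 26 of the 37 members and co-culture 6 that of 7. Control 5 held the lowest signal of 28 members and co-culture 3 that of 4. The difference between groups exceeded the SD within groups for 1 of 37 members, Tyms, where it did so for 9.31% of all genes.

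The cell cycle genes varied within groups more than most genes over the same minimum signal. Among genes with a mean signal of at least 100, the median SD within groups was 0.64 for 36 members (log2 scale) and 0.19 for all 10180 genes. The members' median lay above the SD of 96.4% of those genes. The median ratio of highest to lowest array was 4.36-fold for the members and 1.56-fold for all genes. The G2/M genes had a median SD of 0.70 and the G1/S genes of 0.44 at this signal.

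**Figure D2:**
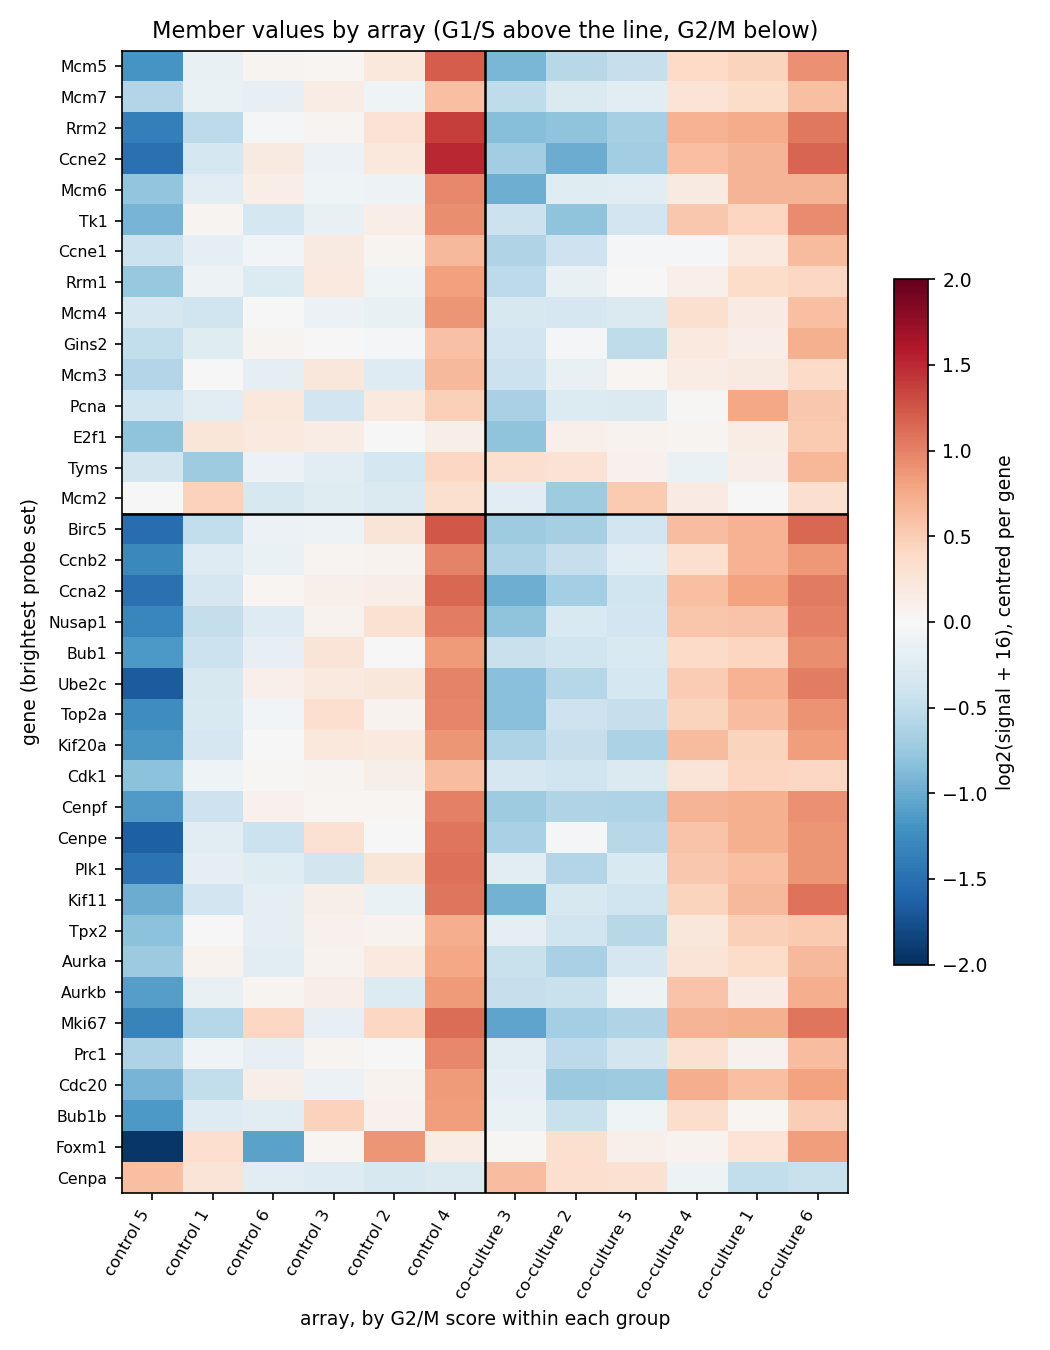
Values of the 37 members (rows, log2(signal + 16) centred per gene) on the 12 arrays (columns, controls left and co-cultures right, each by G2/M score). Rows above the line are G1/S genes and rows below it G2/M genes; nearly every row runs from blue to red within both groups, and Cenpa, the lowest row, runs from red to blue.

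Which arrays carried the small score differences was seen when each array was left out in turn. Without control 5 the G2/M difference was -0.06 and the G1/S difference -0.07. Without co-culture 6 they were 0.0050 and -0.07, and without co-culture 1 they were 0.07 and -0.0041. Without co-culture 4 they were 0.07 and 0.02. Without control 4 they were 0.33 and 0.22. Over all 12 omissions the G2/M difference ran from -0.06 to 0.33 and the G1/S difference from -0.07 to 0.22.

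With numbers 3 and 4 of both groups left out, the G2/M difference was 0.47 and the G1/S difference 0.35, from 4 arrays a group. In that fit 0 members passed the adjusted threshold, with the lowest adjusted p at 0.534 (limma), for Tyms. At an unadjusted p under 0.05 there were 2 members, Tyms with a difference of 0.68 and Rrm1 with 0.46. Sex-linked transcripts differed between the groups in those remaining arrays, so the group and that difference cannot be told apart there.

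**Figure D3:**
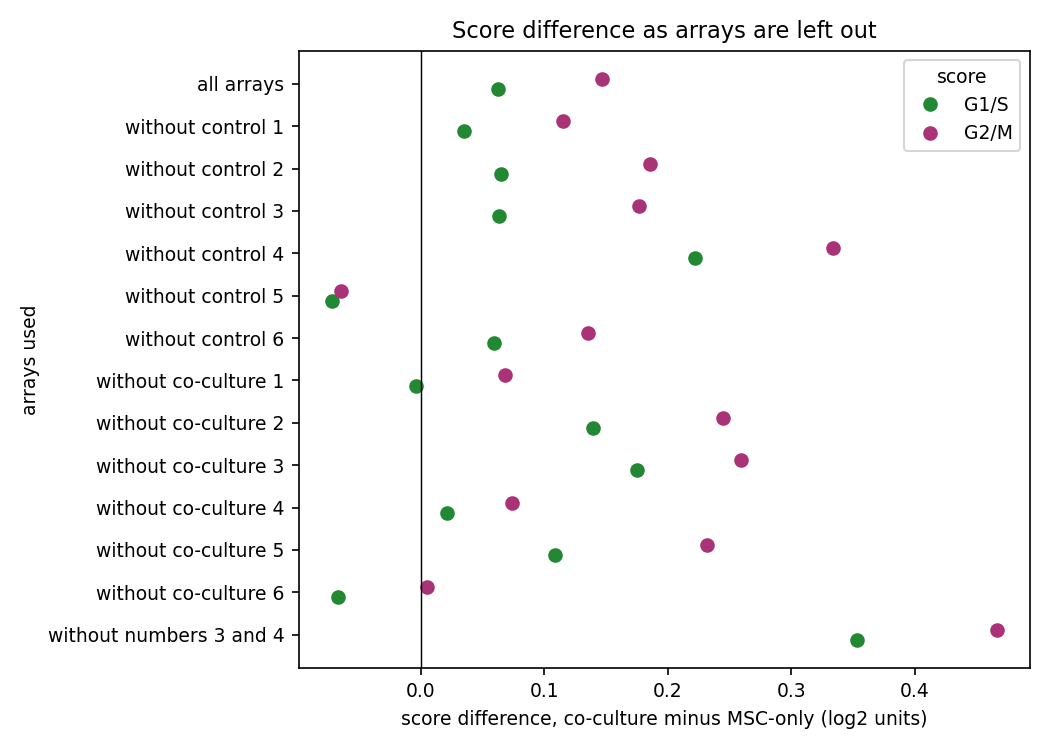
Difference of the G1/S score (green) and of the G2/M score (purple) between co-culture and MSC-only (horizontal axis, log2 units), with all arrays, with each array left out and without the arrays numbered 3 and 4. The points lie at or below 0 for both scores without control 5 and reach their highest values, 0.35 and 0.47, without the arrays numbered 3 and 4.

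Among the G1/S genes, the helicase subunits stayed within the spread between arrays. Mcm7 had signals of 1461, 2048 and 3378 in controls (lowest, median and highest) and of 1549, 2287 and 3357 in co-cultures, and the groups overlapped throughout. Its log2 difference was 0.07 ± 0.23 (SE). Mcm3 ranged over 828, 1173 and 1978 in controls and 928, 1348 and 1639 in co-cultures, with a difference of 0.06 ± 0.20 (SE). Of the 5 probe sets of Mcm3, 2 were higher in co-culture and 3 lower. Both subunits were highest on control 4 and lowest on control 5, so the controls enclosed the co-cultures.

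Mcm6 is another subunit of the ring, whose printed promoter held overlapping E2F matches on both strands. Its signals were 1385, 2234 and 4664 in controls and 1204, 2392 and 3846 in co-cultures. Co-culture 3 lay below every control, and the difference was 0.04 ± 0.32 (SE). Mcm5 differed by -0.06 ± 0.39 (SE) and was lower on all 3 of its probe sets, while Mcm4 and Mcm2 differed by 0.04 and 0.02. Gins2, a subunit of the GINS complex that joins the helicase, differed by 0.04.

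Pcna is the sliding clamp of the replicative polymerases. Its signals were 11361, 15002 and 20753 in controls and 9533, 13806 and 25714 in co-cultures. Of the co-cultures, 2 lay above every control and 1 below, and the difference was 0.04 ± 0.25 (SE).

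The enzymes that make DNA precursors were read next. Rrm1, the large subunit of ribonucleotide reductase, had signals of 777, 1238 and 2344 in controls and 917, 1366 and 1761 in co-cultures. Its difference was 0.07 ± 0.24 (SE), and the co-cultures lay inside the controls. Tk1, thymidine kinase, had signals of 238, 449 and 904 in controls and 260, 493 and 913 in co-cultures, with a difference of 0.10 ± 0.34 (SE). Rrm2, the small subunit of the reductase, varied more than either, with control 4 at 4157 and control 5 at 605, a 6.87-fold range, and a group difference of 0.06.

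Tyms, thymidylate synthase, had the smallest p of all members. Its brightest probe set read 21.5, 34 and 65.3 in controls and 39.8, 55.2 and 80.9 in co-cultures, with 1 co-culture above every control. The difference was 0.46 ± 0.18 (SE) with an unadjusted p of 0.0253 and an adjusted p of 1.0 (limma). Tyms was the only member under a signal of 100 on every array. Its other 3 probe sets differed by -0.32, 0.13 and 0.16, so they did not run one way.

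Cyclins E1 and E2 activate the kinase that starts S phase. Ccne1 had signals of 171, 235 and 379 in controls and 150, 231 and 374 in co-cultures, with co-culture 3 below every control and a difference of -0.07 ± 0.22 (SE). Ccne2 spanned the widest range of the G1/S genes, from 137 on control 5 to 1209 on control 4, or 8.83-fold, with a difference of 0.02. E2f1, the transcription factor of this phase, differed by 0.03. The 95% intervals of the G1/S genes had lower ends from -1.04 to 0.07 and upper ends from 0.40 to 1.09.

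Among the G2/M genes the largest differences were those of Foxm1, Plk1 and Cenpe, and none of them passed the test. Foxm1, the transcription factor of the mitotic genes, had signals of 25.8, 157 and 282 in controls and 147, 168 and 274 in co-cultures. The co-cultures all lay within the range of the controls, whose spread was 10.9-fold. The difference was 0.54 ± 0.40 (SE) with an unadjusted p of 0.204 (limma). Its other 3 probe sets, all dimmer, differed by 0.31, 0.09 and -0.03.

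Plk1, the kinase that promotes entry into mitosis, had signals of 65.9, 181 and 473 in controls and 136, 249 and 406 in co-cultures. Its difference was 0.31 ± 0.38 (SE), and all co-cultures lay within the controls. Ccnb2 had signals of 267, 660 and 1369 in controls and 439, 716 and 1256 in co-cultures, with a difference of 0.19 ± 0.36 (SE). Cdk1 differed by 0.03 and Ccna2, the cyclin of S phase and G2, by 0.13. Control 5 was the lowest array and control 4 the highest for all 4 of these genes.

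Genes of the kinetochore and of the spindle checkpoint showed the same shape. Cenpe, a kinesin of the kinetochore, had signals of 72.5, 237 and 558 in controls and 159, 321 and 489 in co-cultures, with a difference of 0.31 ± 0.41 (SE). Bub1, a checkpoint kinase, had signals of 247, 537 and 1039 in controls and 412, 599 and 1096 in co-cultures, with a difference of 0.20 ± 0.33 (SE). For Bub1, co-culture 6 lay above every control, and for Cenpe none did. Bub1b and Cenpf, of the checkpoint and the outer kinetochore, differed by 0.07 and 0.13.

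Spindle proteins came next. Nusap1, which binds spindle microtubules, had signals of 182, 447 and 983 in controls and 266, 541 and 974 in co-cultures, with a difference of 0.21 ± 0.39 (SE). Kif11, Kif20a and Tpx2, of spindle assembly and cytokinesis, differed by 0.17, 0.07 and 0.04, and Prc1, which bundles midzone microtubules, by -0.04. Aurka, the kinase of spindle poles, differed by -0.05, and Aurkb, the kinase of the chromosomal passenger complex, by 0.16. Birc5, survivin, of the same complex, differed by 0.24.

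Top2a, which untangles sister chromatids, and Mki67, the proliferation marker Ki-67, are common measures of dividing cells. Top2a had signals of 642, 1558 and 3051 in controls and 857, 1631 and 2885 in co-cultures, with a difference of 0.08 ± 0.38 (SE). Mki67 had signals of 582, 1666 and 3257 in controls and 716, 1702 and 3179 in co-cultures, with a difference of 0.04 ± 0.46 (SE). In both genes the medians of the groups lay close together beside the several-fold range within each group. Cdc20 and Ube2c, which drive the anaphase-promoting complex, differed by 0.17 and 0.16. The 95% intervals of the G2/M genes had lower ends from -0.95 to -0.33 and upper ends from 0.51 to 1.41, so the arrays leave room for differences of 2.66-fold for Foxm1.

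**Figure D4:**
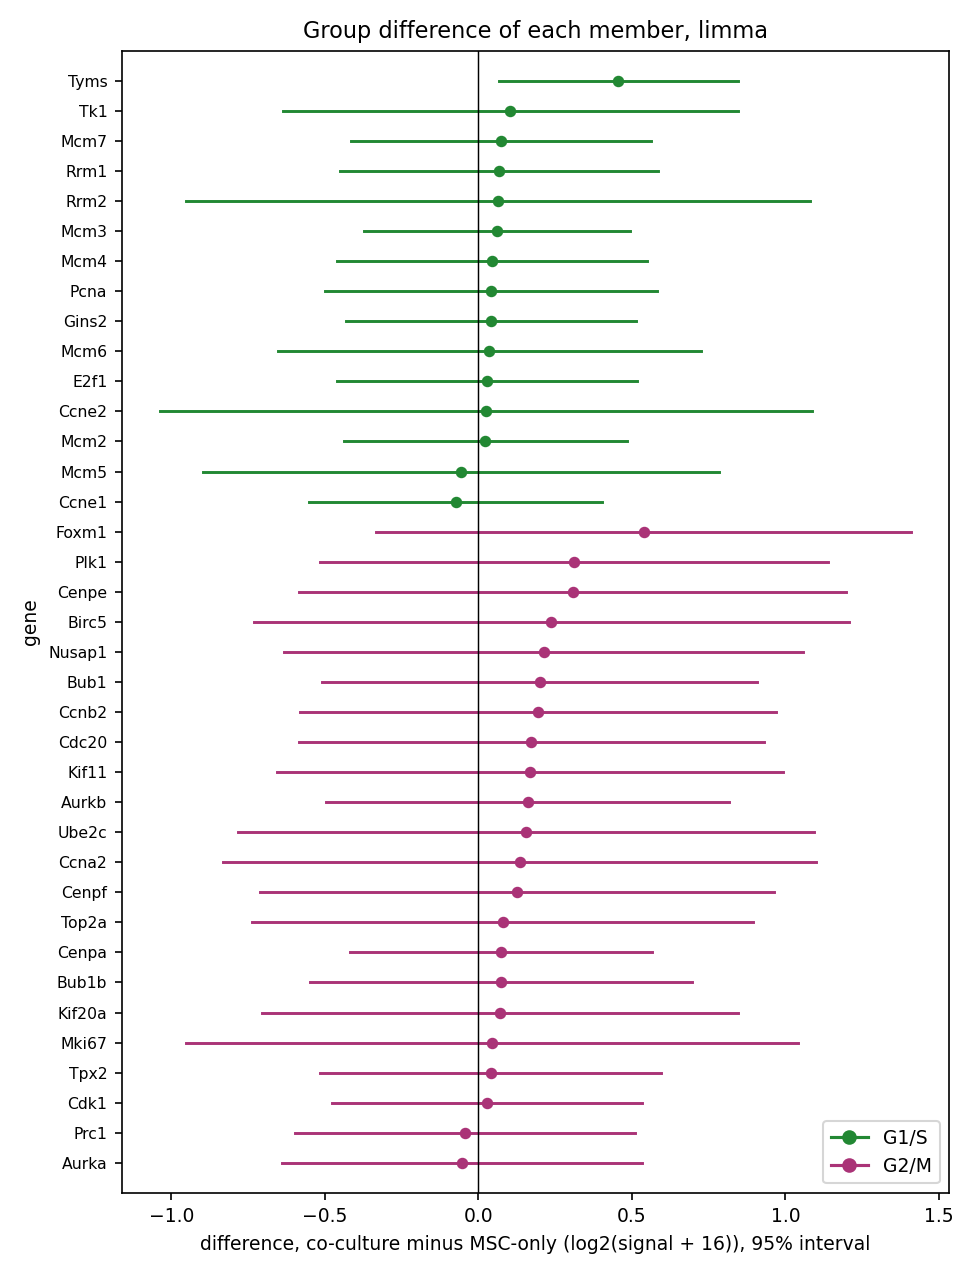
Difference between groups of each member (horizontal axis, co-culture minus MSC-only, log2(signal + 16)) with its 95% interval from limma, G1/S genes in green and G2/M genes in purple. Of the 37 intervals the one of Tyms, from 0.07 to 0.85, lies above 0 before adjustment, and the others cross it.

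The members moved together. Each gene was correlated over the 12 arrays with the mean of the other members of its phase, as a description of arrays that share scaling and RNA. The coefficient was positive for 36 of 37 members, over 0.8 for 32, and 0.949 at the median. Within the 6 controls the median was 0.966 and within the 6 co-cultures 0.948, so the pattern did not come from the contrast between groups. Birc5 (0.991) and Ccnb2 (0.989) followed their phase most closely. The lowest positive values were those of Mcm2 (0.34), Tyms (0.41), Foxm1 (0.59) and E2f1 (0.68). For Mcm2 the second probe set gave 0.87.

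Cenpa ran against the other G2/M genes. Its signals were 2882, 1911, 2009, 1968, 3666 and 2039 on controls 1 to 6, and 1704, 3040, 3690, 2231, 2964 and 1759 on co-cultures 1 to 6. It was high on control 5 and co-culture 3, where the other members were low, and low on co-cultures 1 and 6, where they were high. Its coefficient with the other G2/M genes was -0.87 over all arrays, -0.85 within controls and -0.95 within co-cultures. The other 2 probe sets of Cenpa gave -0.86 and -0.74. Between groups Cenpa differed by 0.07 ± 0.23 (SE), and its other probe sets by -0.07 and -0.22. Its promoter held CCAAT and CHR matches like those of Ccnb2, which followed the phase.

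Genes outside the members with the same pattern were sought among 10144 genes with a mean signal of at least 100. The 5 nearest to the G2/M score over 12 arrays were Pbk (r = 0.997), Spc25 (0.990), Uhrf1 (0.989), Cdca3 (0.988) and Cep55 (0.987). The 5 nearest to the G1/S score were Cep55 (0.987), Cdca8 (0.987), Fignl1 (0.987), Lrr1 (0.984) and E2f8 (0.982). Pbk had signals of 430, 1027 and 1926 in controls and 659, 1097 and 1870 in co-cultures, again overlapping throughout.

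Further genes of the pathway were read from lists chosen by function, with earlier results of these data known. Of 32 measured genes of DNA replication outside the members, 22 had a higher mean in co-culture and 10 a lower one, with a median difference of 0.03. Of 40 further genes of mitosis, 32 were higher and 8 lower, with a median of 0.08. Over all genes 53.2% had a higher mean in co-culture. In each list 0 genes passed the adjusted threshold, and 0 an unadjusted p under 0.05 (limma). Averaged like the members, these lists spanned 2.09-fold and 3.02-fold over the arrays, highest on control 4 and lowest on control 5. In the replication list, differences were -0.17 for Rfc2, which loads the clamp, 0.13 for Rpa3, 0.18 for Pold1 and -0.08 for Pola2. Rpa1, which coats single-stranded DNA, and Slbp, which binds histone mRNA, differed by 0.00040 and 0.01. In the mitosis list, Cks2, Cdc25b and Ckap2 differed by 0.19, 0.16 and 0.22, and H2az1 and Pttg1 by 0.04 and 0.03. Cdc25c, a phosphatase that activates Cdk1, had the largest difference of both lists, 0.42 ± 0.46 (SE), at signals of 5.80 to 105 in controls and 20.6 to 88.5 in co-cultures.

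Averaged in the same way, genes that hold or release cells in G1 spanned a narrower range. The mean of the 12 cyclins, kinases and E2F partners of G1 spanned 1.43-fold and that of the 20 measured brakes of the cycle 1.35-fold. A mean narrows where its genes do not move together, and single genes spanned more, such as Cdkn1c at 20.1-fold, Cdkn2b at 2.94-fold and Ccnd2 at 2.35-fold. In the G1 list 4 means were higher and 8 lower in co-culture, with a median of -0.04, and of the brakes 12 were higher and 8 lower, with a median of 0.02. In both lists 0 genes passed the adjusted threshold or an unadjusted p under 0.05 (limma). Ccnd2, cyclin D2, had signals of 4343, 5338 and 8266 in controls and 3517, 4897 and 5330 in co-cultures, with 2 co-cultures below every control and a difference of -0.30 ± 0.16 (SE). Cdkn1c, the inhibitor p57, had signals of 13.3, 92.1 and 182 in controls and 54.1, 139 and 268 in co-cultures, with a difference of 0.82 and an unadjusted p of 0.136. Gadd45a and Cdkn2b, a stress-response gene and the inhibitor p15, differed by 0.22 and -0.32. Ccnd1, E2f3 and Cdc25a, which drive cells out of G1, differed by -0.08, -0.11 and 0.06. The brakes Ccng1 and Btg1 differed by -0.04 and 0.04. Lin9, a subunit of MuvB that was counted in the same list, differed by 0.14.

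Genes outside the cell cycle lists split the arrays in a way that overlapped in part with the scores. A principal component analysis of 18052 genes, with all cell cycle lists left out, gave a first component with 23.2% of the variance. Genes that followed the scores but were in no list, such as Pbk, Cep55 and Cdca3, remained among the 18052. Controls 1, 3 and 5 and co-cultures 2, 3 and 5 had values from -27.6 to -20.6 on it, and their G2/M scores ran from -1.13 to 0.07. Controls 2, 4 and 6 and co-cultures 1, 4 and 6 had values from 16.3 to 31.1, and their G2/M scores ran from -0.13 to 0.86. Each group thus had 3 arrays at either end. At the positive end the 3 highest values, 30.7 to 31.1, belonged to co-culture 1, control 4 and co-culture 6, which also had the 3 highest G2/M scores. Otherwise the order within each end was not that of the scores. Control 5, lowest on the G2/M score, was at -20.6, and co-culture 4, with a G2/M score of 0.44, was at 16.3. The ends also overlapped on the score: control 3 at the negative end had a higher G2/M score than control 6 at the positive end. The labels give no batch, and what separates these arrays was not tested.

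The mean of the stromal markers ran the other way at both ends of the G2/M score. On the 3 arrays with the highest G2/M scores, control 4, co-culture 6 and co-culture 1, the mesenchymal list averaged -0.44, -0.48 and -0.48 (centred log2 scale). On the 3 lowest, control 5, co-culture 3 and co-culture 2, it averaged 0.37, 0.49 and 0.14. Cxcl12, a chemokine of marrow stroma, had signals of 1136, 829 and 986 on the former and 4056, 8196 and 3279 on the latter. Not every marker did so: Pdgfra and Col1a1 were at their lowest of all 12 arrays on co-culture 2, at 407 and 377, although its G2/M score was low. Of its 15 genes 15 were measured, with summed signals of 33409 to 70183 in controls and 31764 to 65428 in co-cultures, and 0 of them were listed at 0 on every array. Between groups 5 of the 15 were higher and 10 lower in co-culture, and 0 passed the adjusted threshold (limma). At an unadjusted p under 0.05 there was 1 lower gene, Postn (periostin), by -0.62 with an unadjusted p of 0.00983, and 1 higher gene, Lum (lumican), by 1.03; Lum was named after its value was seen. Of the other marker lists, means were higher in co-culture for 8 of 8 erythroid, 8 of 13 neutrophil and mast cell and 7 of 8 endothelial genes. They were higher for 7 of 10 leukocyte, 5 of 15 macrophage and 6 of 11 HSC genes, against 53.2% of all genes. Averaged on the centred log2 scale, the HSC list lay above every control on 4 co-cultures and below every control on 1. Many were dim: 6 erythroid, 10 neutrophil and mast cell, 4 endothelial and 5 HSC genes stayed under a signal of 100 on every array. In these lists 0 genes passed the adjusted threshold (limma). At an unadjusted p under 0.05, 1 erythroid, 2 neutrophil and mast cell and 1 HSC gene were higher, where 2.47% of all genes were. The part of cell composition in the cell cycle scores was not tested.

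**Figure D5:**
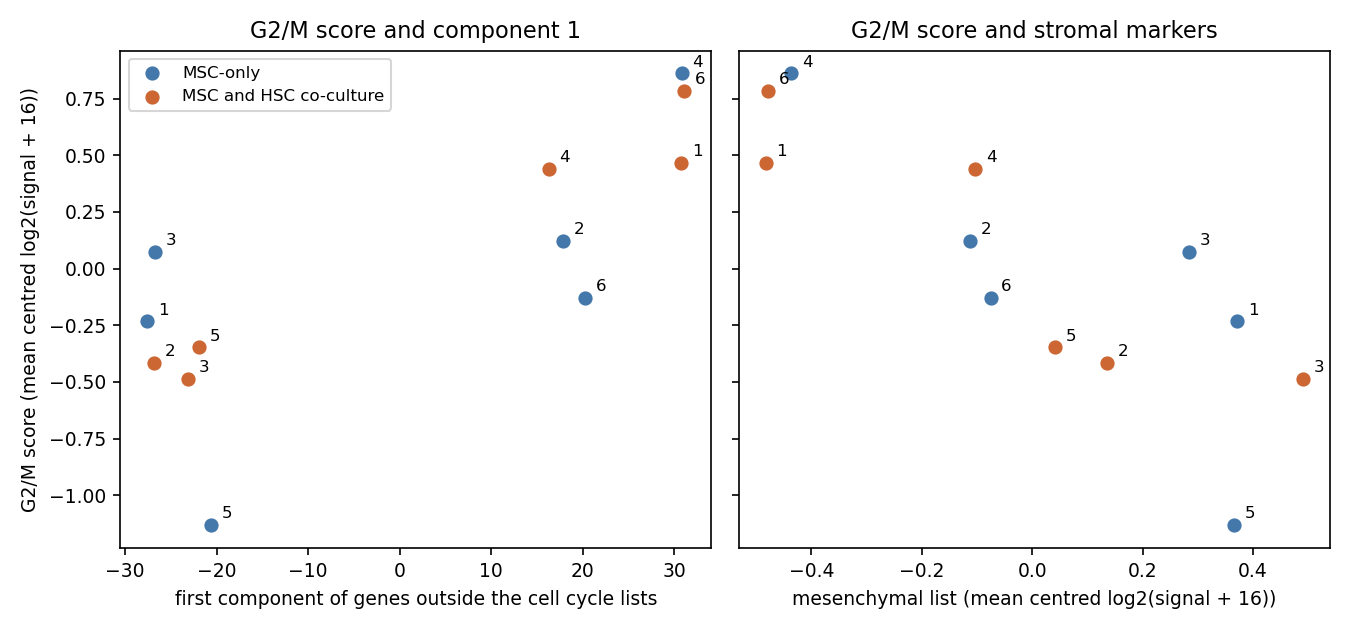
G2/M score (vertical axis, centred log2(signal + 16)) against the first principal component of genes outside the cell cycle lists (left) and against the mean of 15 mesenchymal markers (right, centred log2(signal + 16)), one point per array, numbered as in the labels. Both groups spread along the same directions, with control 4 and co-cultures 1 and 6 at the top and control 5 at the bottom.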

How the data were processed

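RNA of 6 co-cultures and 6 cultures of MSCs alone was measured on 12 arrays. The authors used the GeneChip Operating Software on the scans, which gave the deposited intensity of each probe set, on a linear scale; the target of its scaling is not given in the sources used here. The 2% trimmed mean was alike on all arrays, medians ran from 74.8 to 89.0, and the number of arrays limits the precision. Groups came from the sample labels.

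Signals were taken as log2(signal + 16), which understates changes of low genes. Of 45037 probe sets 34945 carried 1 gene symbol, 932 several and 9160 none in the platform annotation; 34741 were matched to RefSeq by gene ID and 0 symbols changed. A gene was read from its probe set with the highest mean. Probe sets of the same gene ran both ways between groups for Mcm3, Mcm7, Rrm1, Tyms, E2f1, Top2a, Aurka and Bub1b. So did those of Cenpa, Cenpf, Kif11, Cdc20, Foxm1, Nusap1 and Tpx2. All probe sets were tested with limma 3.58.1 in R 4.3.3 (lmFit followed by eBayes, without a block or a filter), with Benjamini-Hochberg adjustment and a threshold of 0.05. The fit and the scores were tested on simulated data.

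The members and lists were chosen with earlier results of these data known. Signals by group are given for the 6 members of each phase with the smallest p and the 3 brightest. The rule for the other cell cycle lists named up to 4 genes with the smallest p and the 2 brightest of each; these are given by difference, with signals for Cdc25c, Ccnd2 and Cdkn1c only. Ccnb1 lacked a probe set with that symbol alone, so its signal, like that of some genes of the other lists, is not analysed here. The table held no comparison columns, and 0 columns were left out. Alternatives covered scaling, the added constant, a filter on dim probe sets, the probe sets per gene, the replicate number as a block, other tests and leaving out arrays.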

Additional observations from a re-analysis of the deposited data

Results flagged for a closer look

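Of 78 groups of 6 arrays examined (each member and both scores, in either group), 6 held an array set apart from the rest by a gap over Dixon's 95% limit for the range of its group; chance marks about 5% of groups. In controls, Mcm4 had a signal of 2775.6 on control 4 where the others lay between 1133 and 1488. Ccne2 was 1208.6 on control 4, with the others from 137 to 482. Kif11 was 459 on control 4, with the others from 97.5 to 230, and Prc1 was 994.8 there, with the others from 321 to 522. E2f1 was 193.2 on control 5, below the others at 348 to 414. In co-cultures, Foxm1 was 273.7 on co-culture 6, above the others at 147 to 185. The arrays concerned were those at the ends of the cell cycle scores.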

How the results depend on the processing

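The count of members past the adjusted threshold was 0 under every alternative run, with 0 to 2 members at an unadjusted p under 0.05. Probe sets or genes past the threshold over the whole array numbered 0 to 4, and 8 without the arrays numbered 3 and 4. Both score differences stayed above 0 under the scalings, constants, filter and probe set rules tried, from 0.02 to 0.07 for G1/S and from 0.10 to 0.16 for G2/M. The count of members with a higher mean ran from 7 to 37 when each array in turn was omitted; without co-culture 1 it was 21, without co-culture 6 it was 11 and without control 5 it was 7. Members whose difference changed sign are given by their log2 difference. With each array centred on its median they were Mcm2 -0.017, Mcm6 -0.0038, Ccne2 -0.015, E2f1 -0.012 and Cdk1 -0.012. With the mean of all probe sets of a gene they were Mcm3 -0.028, Rrm1 -0.014, E2f1 -0.021, Aurka 0.10, Bub1b -0.12, Cenpa -0.072, Cenpf -0.039, Nusap1 -0.0072 and Tpx2 -0.014. Without the arrays numbered 3 and 4 they were Mcm5 0.35, Ccne1 0.26, Aurka 0.18, Cenpa -0.15 and Prc1 0.17. As each array was left out in turn, the ranges were Mcm2 -0.079 to 0.17, Mcm3 -0.052 to 0.20, Mcm4 -0.070 to 0.23, Mcm5 -0.30 to 0.18, Mcm6 -0.12 to 0.24, Mcm7 -0.039 to 0.20, Pcna -0.11 to 0.18, Rrm1 -0.077 to 0.24, Rrm2 -0.20 to 0.35, Tk1 -0.075 to 0.30, Ccne1 -0.21 to 0.050, Ccne2 -0.27 to 0.33, E2f1 -0.13 to 0.19, Gins2 -0.10 to 0.16, Mki67 -0.22 to 0.27, Top2a -0.16 to 0.28. For the remaining ones they were Ccna2 -0.15 to 0.38, Ccnb2 -0.046 to 0.41, Cdk1 -0.13 to 0.15, Aurka -0.21 to 0.10, Aurkb -0.043 to 0.35, Bub1 -0.0090 to 0.39, Bub1b -0.15 to 0.25, Cenpa -0.041 to 0.20, Cenpf -0.087 to 0.34, Kif11 -0.032 to 0.40, Kif20a -0.16 to 0.25, Birc5 -0.042 to 0.51, Ube2c -0.16 to 0.37, Nusap1 -0.028 to 0.44, Prc1 -0.17 to 0.14 and Tpx2 -0.12 to 0.19. The cause was not tested, and none of these differences passed the threshold in any of these fits.

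The replicate numbers were not taken to pair the samples, since not every same-numbered pair deviated together: correlations were -0.16, -0.13, 0.12, 0.15, 0.10 and 0.15 for numbers 1 to 6, and 0 of 6 controls correlated best with the co-culture of its own number. Numbers 3 and 4 did share their sex-linked signals across the groups. Numbers 1, 2, 5 and 6 shared the presence of Y-linked signal, with Eif2s3y at 2604 to 2845 in controls and 1022 to 1331 in co-cultures. They did not share Xist, which was high in their co-cultures only. With the replicate block 0 members passed the threshold, 1 had an unadjusted p under 0.05, 33 had a higher mean, and 0 probe sets passed over the whole array.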
